A study of Mus musculus with 4 samples.

Results

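The Ifi200 (PYHIN) genes lie side by side on distal chromosome 1 of the mouse. Their products typically join a pyrin domain, which binds other pyrin-domain proteins, to a HIN domain, which binds DNA. Most are induced by interferon, and several act as sensors of DNA or as regulators of such sensors. AIM2 is the best known, since it binds double-stranded DNA in the cytosol and recruits the adaptor ASC to activate caspase-1. The members described here were *Ifi203*, *Ifi204*, *Ifi205*, *Ifi207*, *Ifi208*, *Ifi209*, *Ifi211*, *Mndal*, *Aim2* and *Pyhin1*. They were chosen from measured values of the same contrast between Tet3 mutant and control cells, so their differences are given as a description, without a test. Of the 10 names, 9 had a row among the 21462 genes of the table, and RefSeq lists Pyhin1 as a synonym of *Ifi209*. All 9 rows passed the minimum of a mean of 10 normalized counts, as did 16659 genes in all.

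The data comprised 4 RNA libraries of smooth muscle cells sorted from mouse lung. The 2 mutant libraries (labelled Mut) came from tamoxifen-treated mice with floxed *Tet3*, the inducible α-SMA-ERT2Cre driver and a ROSA26 tdTomato reporter. The 2 control libraries (labelled WT) came from animals without the floxed allele, which by the methods carried the Cre allele and/or the reporter. Sorting for tdTomato needs both the reporter and an active Cre, in controls as in mutants. The methods give the tamoxifen treatment without setting controls apart. TET3 oxidizes 5-methylcytosine in DNA to 5-hydroxymethylcytosine. All animals were adult, the labels give C57BL/6 as the strain of all 4, and neither sex, age nor batch is labelled. By the methods, n = 2 were independent animals, cells bearing CD45 or Ter-119 were removed with beads before sorting, and DAPI-negative, tdTomato-positive cells were collected. The Cre driver is active in any cell that expresses smooth muscle actin, not in airway muscle alone.

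Values below are normalized counts as deposited, and each library held an estimated 6.32 to 7.56 M reads in genes. Of 10 smooth muscle markers, 10 were detected, but markers of other cells were too. *Ptprc*, the CD45 gene, had 2136 and 1364 in controls 1 and 2, against 2674 and 1885 in mutants 1 and 2, and the endothelial gene *Kdr* had 2019 to 2536 in the 4 libraries. *Tet3* itself had 1847 and 1926 in controls against 1534 and 1444 in mutants, a log2 fold change of -0.34 (standard error 0.10, limma adjusted p = 0.681). *Xist* had 2 normalized counts in control 2 and 5214 to 6781 in the other libraries. *Ddx3y*, a gene of the Y chromosome, had 774 in control 2 and 0 in the other libraries. By these genes, control 2 came from a male and the other libraries from females. Sex thus differed within the controls and between control 2 and both mutants, and its part in the values was not tested. Control 2 differed more than 2-fold from each of the 3 other libraries in 1003 genes, against 120 for control 1, 248 for mutant 1 and 128 for mutant 2. In such bulk libraries, fewer cells of a type and less RNA per cell cannot be told apart.

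The promoters are shown first, because most members carried the same short sequence close to their start. The interferon-stimulated response element has as its core GAAA, any 2 bases, then GAAA. In the RefSeq promoters (GRCm38.p6), the 250 bases before the start held this core on either strand in 6 of the 8 members that have an entry, against 2.97% of all 32817 promoters. A member counted if any of its entries held the core, whereas the share over all is per promoter. *Mndal* and *Ifi203* have 2 entries each, and an entry of *Ifi203* lacked the core. *Ifi204* was not among the entries. The 30 bases around the core are given below for these 6 on the strand of the gene, 5′ to 3′, with the core in capitals. The line for *Ifi209* shows a stretch without the core, picked for its likeness to another gene of the family.
Ifi208: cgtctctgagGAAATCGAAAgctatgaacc
Ifi207: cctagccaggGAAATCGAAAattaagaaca
Mndal: aagagctgggGAAATCGAAAgctatgaaca
Ifi203: aagagctgggGAAATCGAAAgctatgaaca
Ifi211: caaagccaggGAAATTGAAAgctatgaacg
Ifi205: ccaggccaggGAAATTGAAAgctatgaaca
Ifi209: aatctctgagTAAATCGAAAgagatgcact

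The windows lie at chr1:173673597-173673626 on the plus strand for *Ifi208*, and on the minus strand at chr1:173741831-173741860 for *Ifi207*, chr1:173880204-173880233 for *Mndal*, chr1:173942508-173942537 for *Ifi203*, chr1:173913064-173913093 for *Ifi211* and chr1:174031870-174031899 for *Ifi205*. Those of *Mndal* and *Ifi203* were identical in 30 of 30 bases. The core ended 25 to 48 bases before the start of 5 members and 124 bases before that of *Ifi205*. *Ifi209* did not hold the core in its 250 bases. The stretch printed for it, at chr1:173630770-173630799 on the plus strand, is the one most like the window of its neighbour *Ifi214* (27 of 30 bases). It differs from the core by G1T, counted from 1 at the first base of the core. Since it was picked for this likeness, the likeness is no result. Another stretch of *Ifi209*, read on the opposite strand, also differed from the core by 1 base (A8G). A core with at most 1 of its 8 fixed bases different is common, in 31.4% of all promoters. *Aim2* did not hold the core either, and also had a match with 1 base different. That window of *Aim2* is not printed, and its match is read on the opposite strand. On the strand of each gene it was identical to that of *Ifi208* in 7 of 30 bases. Since the 2 matches run in opposite directions, this is no measure of likeness. Of the other PYHIN genes, *Ifi206*, *Ifi213* and *Ifi214* held it, and the window of *Ifi213* was identical to that of *Ifi208* in 30 bases. *Ifi202b* lacked it, and held the STAT motif (TTC, any 3 bases, GAA, read on both strands), which was found in 7.01% of all promoters and in 0 of the 8 members. A match of letters is a description and does not show that a factor binds there.

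The members, and through them the summed family, took up more of the mutant libraries. Summed over all 14 PYHIN genes of the table, the normalized counts came to 1992 and 1893 for the controls, against 3541 and 3415 for the mutants. These sums were 0.0284% and 0.0264% of the control libraries and 0.0514% and 0.0502% of the mutant libraries. The 9 members alone summed to 1538 and 1627 in controls against 3147 and 3092 in mutants. The 5 other PYHIN genes, which were not chosen, summed to 454 and 266 against 394 and 323. Of these 5, 2 had a log2 fold change above 0 and 3 below, with a median of -0.07. All 9 members had a log2 fold change above 0, with a median of 0.93 on the log2(value + 1) scale, where the median over all genes tested was -0.01 and 49.0% were above 0. In 7 of the 9, both mutants lay above both controls, as did 19.6% of all genes tested. No test bears on these counts, because the members were chosen for this contrast. Across all genes, limma called 0 of 16659 at an adjusted p under 0.05 (0%, members included), while 1112 had an unadjusted p under 0.05.

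**Figure D1:**
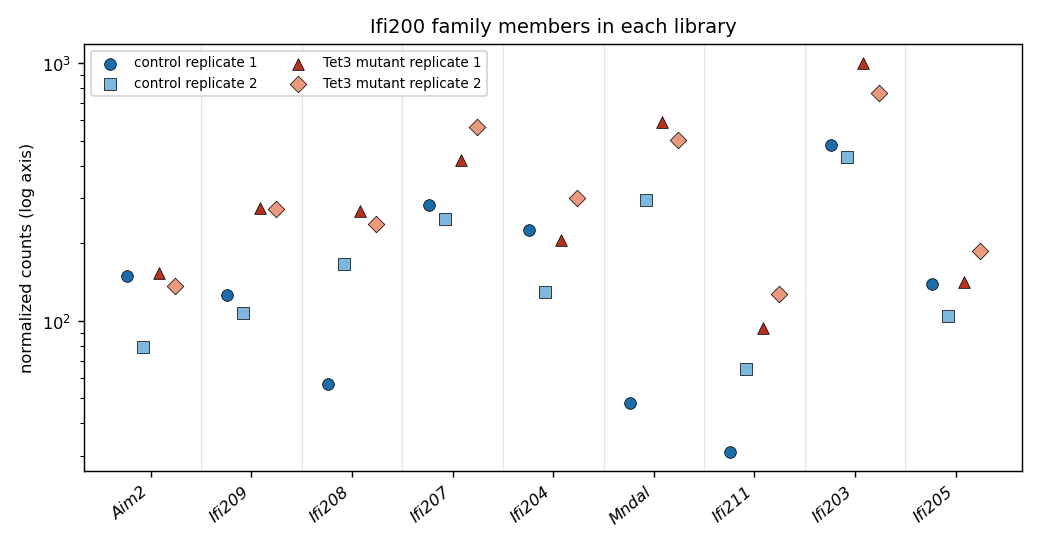
Normalized counts (log axis) of the 9 members in each of the 4 libraries, 1 point per library, with genes in genomic order. Both mutants lie above both controls except for *Aim2* and *Ifi204*, and control replicate 1 is far below the other libraries for *Ifi208*, *Mndal* and *Ifi211*.

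The clearest separation was that of *Ifi209* (ENSMUSG00000043263, chr1:173630917-173647928), the gene also listed as *Pyhin1* and Ifix. It had 126 and 107 normalized counts in controls 1 and 2, against 274 and 271 in mutants 1 and 2. The 2 libraries of each group lay close together, at 116.5 ± 13.4 and 272.5 ± 2.12 (SD, n = 2 each), and its log2 fold change was 1.22 (standard error 0.18). Leaving out any 1 library moved this only between 1.11 and 1.34. Over the 4 libraries, the genes outside the family with the nearest pattern were *Stmnd1*, *Hpf1* and *Ildr2*, at distances of 0.13 to 0.19 between centred log2 values.

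*Ifi203* and *Ifi207* had similar log2 fold changes and the highest mean counts of the members over the 4 libraries. *Ifi203* (ENSMUSG00000039997, chr1:173920407-173942672), an interferon-inducible member, had 480 and 433 in controls against 997 and 763 in mutants, a log2 fold change of 0.93 (standard error 0.17). *Ifi207* (ENSMUSG00000073490, chr1:173723427-173741747) had 282 and 249 in controls against 422 and 566 in mutants, or 0.88 (standard error 0.19). For both genes the groups did not overlap, and the SD was larger among the mutants (165 and 102) than among the controls (33.2 and 23.3).

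*Mndal*, *Ifi208* and *Ifi211* had the largest log2 fold changes of the members, but their 2 controls lay far apart. *Mndal* (ENSMUSG00000090272, chr1:173849126-173880881), named for its likeness to the human myeloid nuclear differentiation antigen, had 48 and 295 in controls against 592 and 505 in mutants. Control 1 was thus the low library, and the control mean of 171.5 had an SD of 175. The log2 fold change of 2.19 (standard error 0.83) was 0.89 without control 1 and 3.48 without control 2. *Ifi208* (ENSMUSG00000066677, chr1:173673675-173698395), also listed as Pydc3, had 57 and 166 in controls against 267 and 238 in mutants, a log2 fold change of 1.36 (standard error 0.51), which was 0.60 without control 1. *Ifi211* (ENSMUSG00000026536, chr1:173896345-173913046) had 31 and 65 in controls against 94 and 127 in mutants, a log2 fold change of 1.26 (standard error 0.43), or 0.74 without control 1. In all 3 genes control 2 also lay below both mutants.

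*Aim2*, *Ifi205* and *Ifi204* had the smallest log2 fold changes of the members. *Ifi204* (ENSMUSG00000073489, chr1:173747293-173766943), the mouse relative of the human DNA sensor IFI16, had 226 and 129 in controls against 206 and 300 in mutants. *Aim2* (ENSMUSG00000037860, chr1:173350879-173466040) had 149 and 79 in controls against 154 and 136 in mutants. In both genes the groups overlapped, and it was control 2 that was low. The log2 fold change of *Ifi204* was 0.54 (standard error 0.34) and fell to 0.14 without control 2. That of *Aim2* was 0.41 (standard error 0.35) and was -0.04 without control 2. *Ifi205* (ENSMUSG00000054203, chr1:174011998-174031810) had 139 and 104 in controls against 141 and 186 in mutants, with a log2 fold change of 0.43 and a standard error of 0.25. Its groups did not overlap, but control 1 and mutant 1 differed by only 2 normalized counts.

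**Figure D2:**
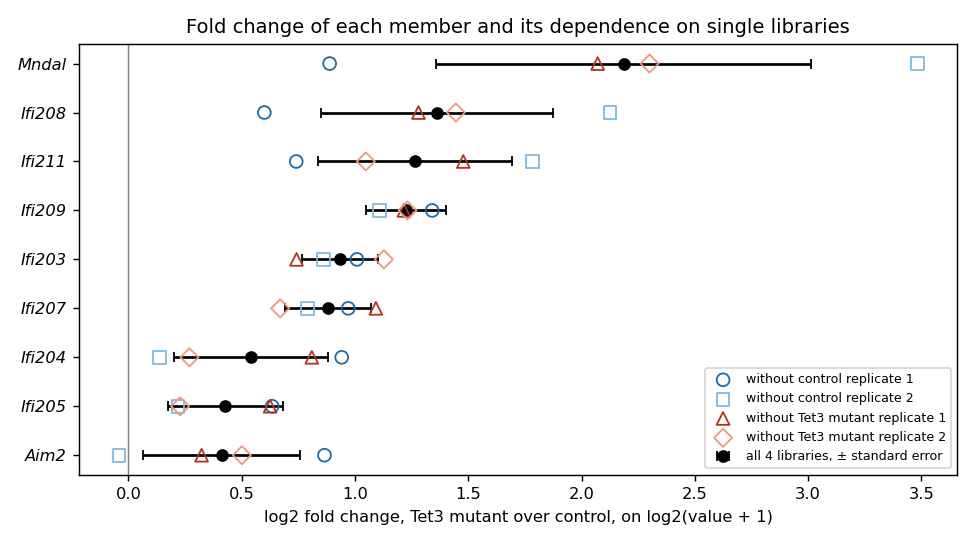
Log2 fold change of each member, Tet3 mutant over control, on log2(value + 1), with the moderated standard error (black) and the value without each library in turn (open symbols). *Ifi209*, *Ifi203* and *Ifi207* stay close to their value, *Mndal* ranges from 0.89 to 3.48, and *Aim2* reaches -0.04 without control replicate 2.

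By level per exon length, the members were ordinary to low genes of these cells in the controls. These levels used the full exon length, though reads that fit several genes were not counted. The share of 75-base windows shared with another gene was 63.6% for *Ifi211* and 0 for *Aim2*. The order of the members was not corrected for this, so levels of members with much shared sequence can be too low. *Ifi207* had 77.6 ± 6.82 normalized counts per kb in controls (SD, n = 2 in each group), *Ifi203* 68.1 ± 4.96 and *Ifi204* 49.8 ± 19.3, where the median over all genes tested was 54.0 for the mean of both groups. *Mndal* followed at 47.8 ± 48.6, and *Ifi209*, *Aim2*, *Ifi205*, *Ifi211* and *Ifi208* lay between 21.2 and 32.8 per kb, where neighbours in the order did not differ beyond their spread. In mutants the order was *Mndal* (153 ± 17.1), *Ifi207* (144 ± 29.8) and *Ifi203* (131 ± 24.7), which did not differ beyond their spread, then *Ifi209* (76.8 ± 0.60), *Ifi204* (71.0 ± 18.7) and *Ifi211* (61.9 ± 13.1), and last *Ifi208*, *Aim2* and *Ifi205* at 39.1 to 48.0 per kb.

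The 5 other PYHIN genes of the table show that control 1 differed from the other 3 libraries across the locus, and not in 1 direction. *Ifi202b* (ENSMUSG00000026535, chr1:173962568-173982744) encodes a HIN protein without a pyrin domain that restrains AIM2, and its expression is known to differ widely between inbred mouse strains and to be very low in C57BL/6. It had 257 normalized counts in control 1, 2 in control 2, 0 in mutant 1 and 2 in mutant 2. Against a floor of 3 counts per library, control 1 was at least 85.7-fold higher than each of the others. The table holds no genotypes, so whether control 1 carried the C57BL/6 form of this locus, as labelled, was not tested. That limit applies to the control 1 values of all members, also those at which control 1 did not stand apart, since they lie among these genes. *Ifi213* was the reverse, with 19 in control 1, 128 in control 2 and 187 and 149 in mutants. *Ifi206* likewise had 10 in control 1, 39 in control 2 and 92 and 76 in mutants.

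In all, control 1 was more than 2-fold below each of the 3 other libraries in 5 of the 14 PYHIN genes, *Mndal*, *Ifi208*, *Ifi211*, *Ifi206* and *Ifi213*, where 0.384% of all genes tested were so. It was more than 2-fold above them in 1, *Ifi202b*, against 0.336% of all genes. Control 2, the library most often apart over all genes (1003 of the 16659 tested), was apart in 0 of the 14. So few genes cannot tell 0 from that share. The 3 genes *Ifi206*, *Ifi208* and *Ifi213*, whose promoter windows were identical in 29 or 30 of 30 bases, were all low in control 1. The windows are reference sequence, not that of control 1, and whether they bear on these values was not tested. *Mndal* and *Ifi203*, whose windows were identical, were not alike, since *Ifi203* had 480 in control 1 and 433 in control 2. The remaining PYHIN genes were *Ifi214*, with 37 and 3 in controls against 22 and 5 in mutants, and the pseudogene *Ifi203-ps*, with 131 and 94 in controls against 93 and 91 in mutants.

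**Figure D3:**
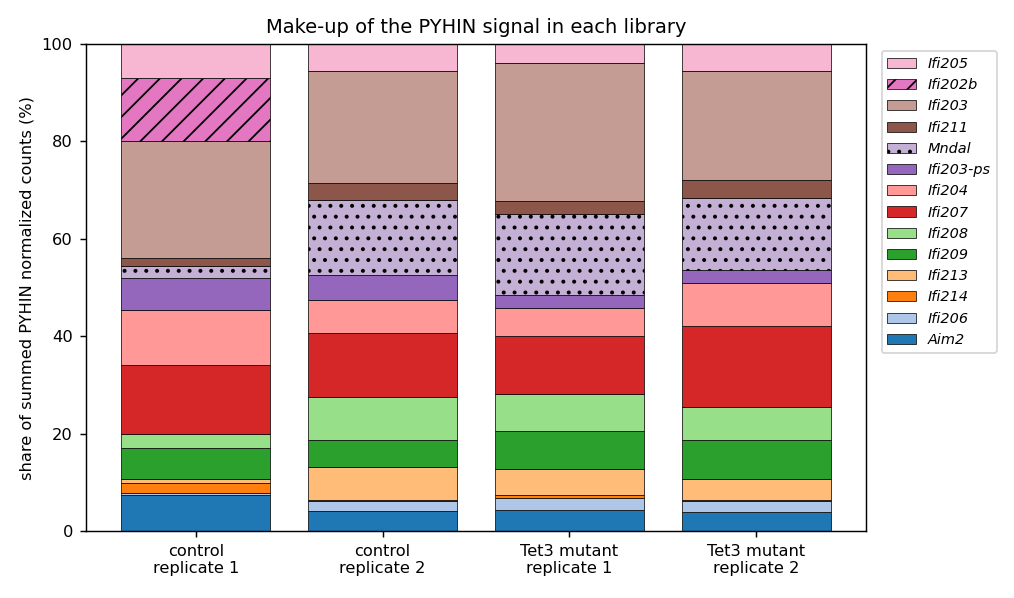
Share of the summed PYHIN normalized counts taken by each of the 14 genes, 1 bar per library. *Ifi202b* (hatched) takes 12.9% in control replicate 1 and at most 0.106% in the other libraries, while *Mndal* (dotted) takes 2.41% there and 14.8% to 16.7% in the others.

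The members were also compared with each control alone. Against control 2 alone, both mutants were higher in 9 of 9 members, where 39.9% of all genes tested were. Against control 1 alone, both mutants were higher in 7 of 9, where 32.4% of all genes were. The median log2 fold change of the members was 0.89 without control 1 and 0.86 without control 2. As shares of the family, *Ifi203* took 22.3% to 28.2% of the PYHIN counts in each of the 4 libraries, and *Ifi209* took 6.33% and 5.65% in controls against 7.74% and 7.94% in mutants.

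Genes around the family gave mixed values. Of 20 other genes of the table within 1 Mb, 14 were tested, with a median log2 fold change of 0.45, and limma called 0 of them. That median was 0.15 without control 1 and 0.57 without control 2, or 0.30 and 0.28 without mutants 1 and 2. Low in control 1 were *Igsf9* (27, against 69 to 96 in the others) and *Dusp23* (32, against 70 to 85), and *Slamf8*, an immune receptor, had 41 and 82 in controls against 104 and 149 in mutants. *Slamf9* had 133 and 109 in controls against 142 and 210 in mutants, and *Cfap45* 107 and 124 against 171 and 159. *Pigm*, *Tagln2* and *Cadm3* had log2 fold changes between -0.09 and 0.00.

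**Figure D4:**
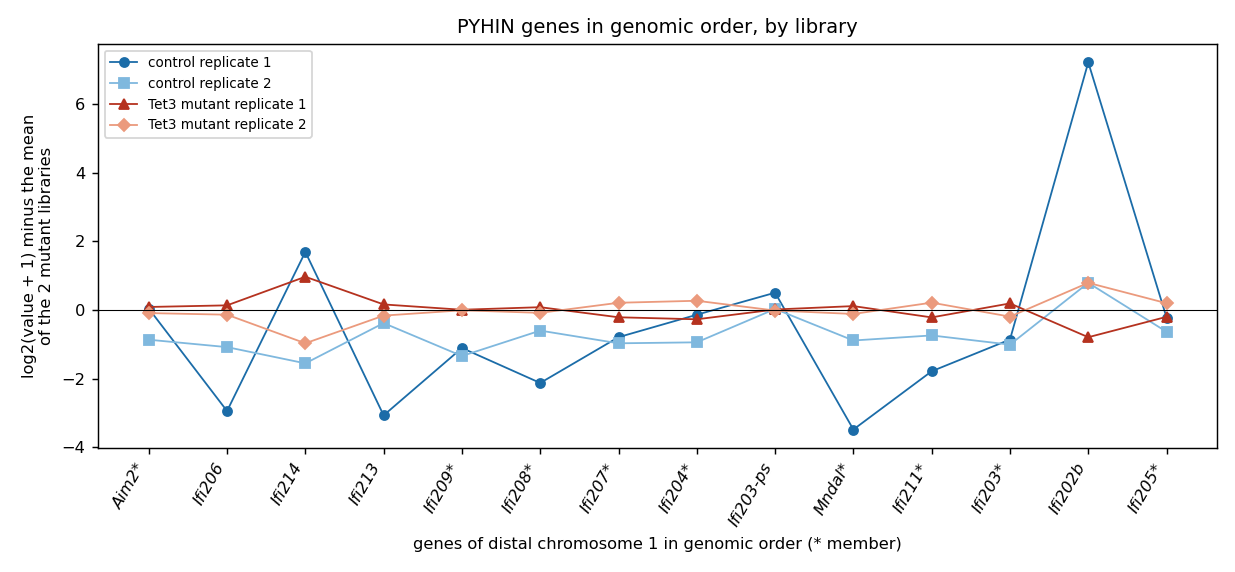
Log2(value + 1) of each library minus the mean of the 2 mutant libraries, for the 14 PYHIN genes in genomic order (members starred, lines join genes of 1 library). Control replicate 1 (dark blue circles) swings up at *Ifi202b* and down at *Ifi206*, *Ifi213*, *Ifi208* and *Mndal*, while control replicate 2 stays below 0 for all members.

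Genes that act with the family or in related pathways were followed from lists. The AIM2 inflammasome list also held sensors of other inflammasomes, *Nlrp3*, *Nlrc4*, *Nlrp1b* and *Mefv*. In this list, 11 of 12 genes had a log2 fold change above 0 (median 0.29, or 0.64 without control 1 and 0.23 without control 2), and limma called 0. *Pycard*, the gene of ASC, had 118 and 95 in controls against 142 and 177 in mutants, and *Casp1* had 110 and 81 against 125 and 177. *Casp4* and *Nlrc4* had the largest log2 fold changes of the list among genes with a mean of at least 50, at 0.81 and 0.78, but these were 0.16 and 0.28 without control 2. *Casp8*, *Gsdmd* and *Il1b*, its most abundant genes, had 0.19, 0.16 and 0.22, and the groups overlapped for *Il1b*. *Mefv*, the pyrin gene, had 77 and 95 in controls against 75 and 61 in mutants.

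Among 13 genes of cytosolic DNA sensing, 8 were above 0 (median 0.16, or 0.25 without control 1 and 0.09 without control 2), 1 had an unadjusted p under 0.05 and limma called 0. *Sting1*, the adaptor of the pathway, had 236 and 197 in controls against 283 and 318 in mutants. *Cgas*, whose product makes the messenger that activates STING, had 76 and 52 against 95 and 97. The kinase gene *Tbk1*, *Irf3* and *Samhd1* had log2 fold changes of -0.02, -0.12 and 0.14. Of 17 genes of the interferon receptors, STATs and IRFs, 13 were above 0 (median 0.14, or 0.01 without control 2 and 0.26 without control 1), and 0 were called by limma. *Ifnar1*, *Ifngr1* and *Jak1* had log2 fold changes of 0.06, 0.16 and 0.07, and *Irf7* and *Usp18* had 0.40 and 0.44, which were 0.01 and 0.18 without control 2.

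Interferon-stimulated genes on other chromosomes had their lowest value in control 2 in 27 of 27 cases. All 27 had a log2 fold change above 0 (median 0.41), 1 had an unadjusted p under 0.05 and limma called 0. Their median was 0.00 without control 2 and 0.80 without control 1. *Ifit1* had 200 and 84 in controls against 205 and 273 in mutants, and *Rtp4* had 182 and 86 against 211 and 203. *Gbp2* had 722 and 559 against 874 and 896, so both controls were lower. *Parp14* and *Ddx58*, also among the most abundant of the list, had log2 fold changes of 0.13 and 0.09. Control 2 was also the lowest library in 6 of the 9 members, and the share of all genes lowest in control 2 was not counted. The difference between the list and the members was not tested, and the members were chosen from this contrast.

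**Figure D5:**
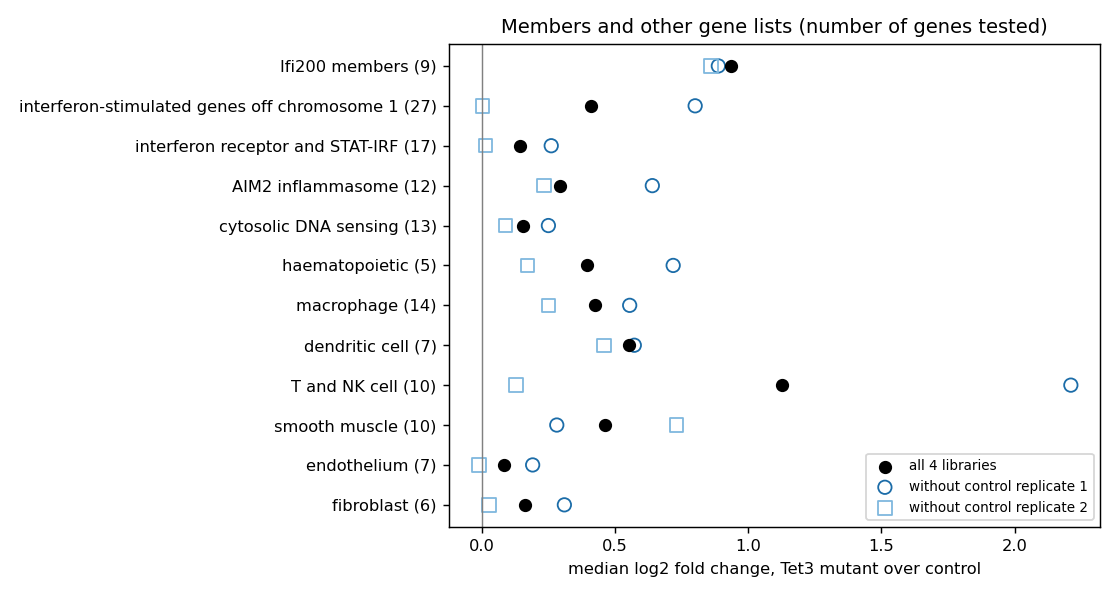
Median log2 fold change, Tet3 mutant over control, of the members and of other gene lists, with the number of genes tested, over all 4 libraries (black) and without each control. The members lie between 0.86 and 0.93, and without control replicate 2 interferon-stimulated genes lie at 0.00 and T and NK cell markers at 0.13. The members were chosen from this contrast, so their place beside the lists is no test.

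Markers of cells that express PYHIN genes also differed between the libraries. The 5 haematopoietic markers summed to 4302 and 2968 normalized counts for the controls, against 4990 and 4517 for the mutants, with 5 of 5 above 0 and a median of 0.40, or 0.17 without control 2 and 0.72 without control 1. Of 14 macrophage markers, 13 were above 0 (median 0.43, or 0.25 without control 2), and their sums were 8574 and 7211 in controls against 9267 and 10402 in mutants. The 7 dendritic cell markers were all above 0 (median 0.55), at 1708 and 1788 in controls against 2179 and 2590 in mutants. T and NK cell markers (10 of 10 above 0, median 1.13) summed to 864 and 237 in controls against 893 and 943 in mutants, and B cell markers (5 of 6 above 0, median 0.49) to 467 and 152 against 465 and 231. The B cell median changed sign when either of 2 libraries was left out, and was -0.57 without control 2, -0.17 without mutant 1 and 1.34 without control 1. The T and NK cell median was 0.13 without control 2 and 2.21 without control 1. None of these markers was listed at 0 in all 4 libraries, and limma called 0 of them. Smooth muscle markers had a median of 0.46 (9 of 10 above 0), endothelial markers 0.08 (7 of 7), fibroblast markers 0.16 (5 of 6) and epithelial markers -0.32 (2 of 6). Each of these 4 medians moved with the controls. Without control 1 they were 0.28, 0.19, 0.31 and -0.63 in that order, and without control 2 they were 0.73, -0.01, 0.03 and -0.03. The part of these cells in the values of the members was not tested.

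Reads that fit several genes were not counted, so sequence shared within the family bears on the values. Of all 75-base windows of the annotated transcripts, 63.6% were shared with another gene for *Ifi211* (40.6% with *Ifi205*), the highest share of any member. The share was 23.1% for *Ifi209* (all with *Ifi214*), 16.6% for *Ifi205*, 13.2% for *Ifi204*, 11.8% for *Ifi208*, 11.1% for *Mndal*, 5.71% for *Ifi203*, 2.80% for *Ifi207* and 0 for *Aim2* and *Ifi202b*. Exons of *Mndal* overlapped an annotated pseudogene over 3.29% of their length.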

How the data were processed

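RNA-seq of sorted lung smooth muscle cells was analysed from 2 control and 2 Tet3 mutant libraries, grouped by their labels. The authors depleted ribosomal RNA, made stranded libraries, and processed 75-base single-end reads with Trimmomatic 0.36, STAR 2.6.0c (mm10, GRCm38) and featureCounts of Subread 1.6.0, leaving out reads that fit several genes or places. Whether strand was used is not given in the sources used here. The deposited values are a score: counts scaled by the authors with DESeq2 and rounded to whole numbers, not raw counts. Deposited totals were 6805272 to 7164573. Scaling factors of 0.901 to 1.09, estimated from gaps and doublings among low values, gave the read numbers, but whole reads were not recovered, so no count test was run. The 2 libraries of a group differed beyond counting noise (mean squared difference over sum 24.9 and 6.49, where noise gives about 1).

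Models were fitted on log2(value + 1) with limma 3.58.1 in R 4.3.3 (trend on, Benjamini-Hochberg over the 16659 genes with a mean of at least 10), and checked on simulated data. Standard errors are those of that fit. Counting floors cover counting error only. Exon lengths, overlaps and transcript windows came from GENCODE M21 (99.9% of genes tested matched). Transcripts outside the coordinates of the table were left out, since *Mndal* is longer there. Promoters came from RefSeq. Members and lists were chosen with earlier results of these data known. Named from each list were the 3 most abundant genes, and the 2 that changed most in log2 terms from a mean of 50 upwards. Genes outside this rule (*Pycard*, *Casp1*, *Mefv*) were chosen after their values were seen. Among same-numbered libraries, deviations from group means correlated by 0.13 over only 2 pairs. Single genes that are not reported here were left out of the text.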

Additional observations from a re-analysis of the deposited data

How the results depend on the processing

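Pseudocounts of 0.5 and 8, minimum means of 1 and 50, TMM factors (trimmed mean of log ratios) and equal totals left the number of genes called by limma at 0, and the smallest adjusted p lay between 0.0753 and 0.538. With the trend option of limma off, the fit called 1 gene (*Hal*), which is no member. The cause was not tested. The log2 fold change of each member kept its direction in all 72 values under these settings and the block. The replicate number as a block, over 2 pairs that are not shown to be pairs, called 0 genes, with 1637 at an unadjusted p under 0.05 against 1112 without the block. Without 1 library in turn, only values are given. The median of the members ranged from 0.86 to 1.09, and the number of members higher in the mutants from 7 to 9, a count added after the data were seen. Of 36 such single values, 1 changed sign, that of *Aim2* without control replicate 2 (-0.04). Ranges were 0.74 to 1.78 for *Ifi211*, 0.60 to 2.13 for *Ifi208*, 0.89 to 3.48 for *Mndal*, 0.14 to 0.94 for *Ifi204* and 0.22 to 0.63 for *Ifi205*. With 2 libraries per group, the spread of a member rests on 2 values.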
